A study of Mus musculus with 8 samples.

Results

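The genes described here are 9 markers that have been used to recognise or isolate liver progenitor cells: the surface proteins Epcam, Prom1, Alcam, Cd24a, St14, Ncam1 and Itga6, the transcription factor Foxl1 and the fetal serum protein Afp. They were chosen by name from the 46603 genes of the count table, and 7 of the 9 had enough reads to be tested. RNA was sequenced from 8 libraries of sorted liver cells, an EGFP-positive and an EGFP-negative library from each of the 4 mice JV602, JV621, JV624 and JV6314. Every mouse was heterozygous for the reverse tetracycline transactivator in the ubiquitously active Rosa26 locus (R26rtTA) and for a doxycycline-inducible histone 2B-EGFP fusion, on a mixed C57BL/6 and CBA background. All of them received doxycycline from birth to postnatal day 5 and were sorted at 8 weeks of age. Since the fusion protein is diluted at each division, EGFP-positive cells are taken as those that divided least after the pulse. They are called liver label-retaining cells (LLRCs). EGFP-negative cells of the same livers are called non-LRC cells, although a lack of EGFP does not by itself show more divisions. Both fractions were gated as EpCAM-positive and CD45-negative, so the level of Epcam was set in part by the sort and is a check of it. The transgene is not restricted to a cell type, and the study notes that blood cells of these mice can carry EGFP without doxycycline. The comparison asks whether label-retaining cells within the EpCAM-positive gate carried more or less progenitor marker transcript than the other cells of that gate.

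In adult liver most of these surface proteins mark the lining cells of the bile ducts, the cholangiocytes, and they are also found on the progenitor-like cells that appear around the portal tracts after injury. No single marker separates a resting progenitor from a cholangiocyte, which is why combinations of them are used for sorting. Afp belongs to the fetal hepatoblast and is shut off after birth, and Foxl1 is known from progenitor cells of the injured bile duct and from subepithelial mesenchyme of the gut.

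The authors deposited raw counts per gene. Total counts were between 7860021 and 9851819 in LLRC libraries and between 4670132 and 8056103 in non-LRC libraries. Values are given as CPM, counts relative to the library size after scaling by TMM, and a floor of 3 counts came to between 0.291 and 0.626 CPM, which covers counting error only. Differences are log2 fold changes of LLRC over non-LRC with standard errors (SE), from edgeR's quasi-likelihood test over 13605 genes adjusted by the Benjamini-Hochberg method, and genes with an adjusted p below 0.05 were called. The non-LRC library of JV621 stood apart, with 15.55% of the tested genes at 0 counts, followed by the non-LRC library of JV6314 with 7.755%, while the other 6 libraries had between 0.3455% and 1.566%. The non-LRC library of JV6314 also carried pancreatic acinar transcripts, with a summed level of 2146 CPM over 12 genes against 2.37 to 24.2 CPM in the other libraries. In sorted bulk cells, fewer cells of a type and less RNA per cell cannot be told apart.

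Epcam, Cd24a, Alcam and Prom1 were abundant, and the other 5 markers were lower in every library. Per kilobase of exon, Epcam had a mean of 258 RPKM (CPM per kilobase) over the 8 libraries and ranked above 99.0% of the tested genes. Cd24a followed with 167 RPKM, Alcam with 56.0 RPKM and Prom1 with 41.5 RPKM, the last above 91.5% of the tested genes. Itga6 and St14 were in the middle of the tested genes, with 3.92 and 3.89 RPKM. Ncam1 was near the bottom with 0.514 RPKM, Afp stood at 0.223 RPKM and Foxl1 was not read at all. The ranges over the libraries were 197 to 349 RPKM for Epcam, 81.0 to 239 for Cd24a, 27.0 to 91.6 for Alcam, and 29.7 to 52.6 for Prom1. These neighbours overlapped in range, so their order is a description of the means, and Alcam and Prom1 changed places when the length of the longest coding transcript was used in place of all exons. Itga6 (1.71 to 7.50 RPKM) and St14 (0.775 to 6.81 RPKM) likewise overlapped and changed places, whereas Prom1 and Itga6 had separate ranges. The range of Ncam1 (0 to 1.12 RPKM) overlapped that of St14.

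**Figure D1:**
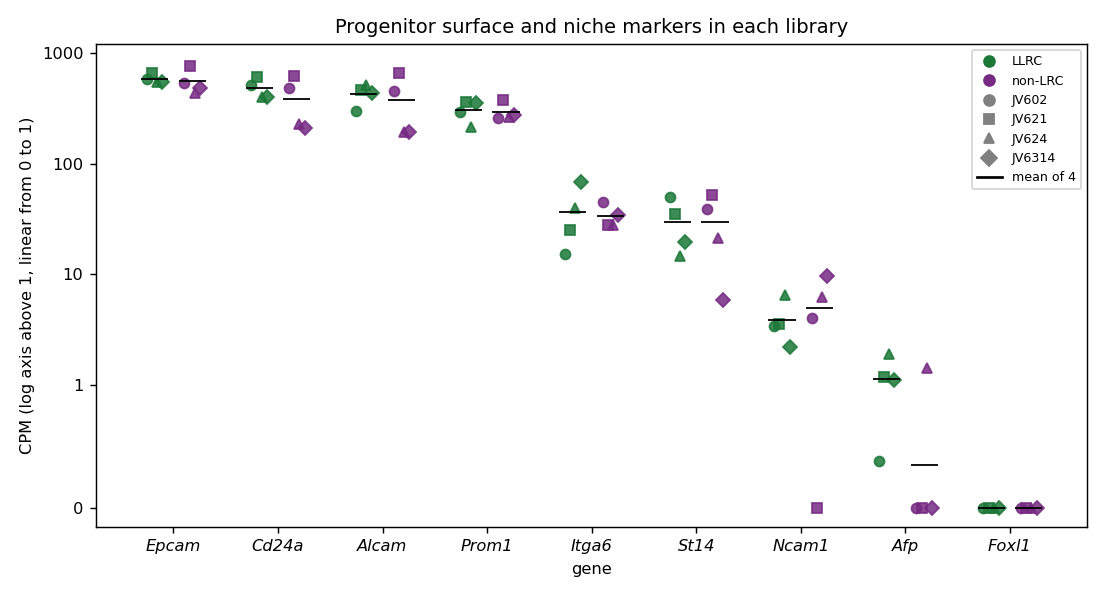
CPM of the 9 markers in each of the 8 libraries, on an axis that is logarithmic above 1 and linear from 0 to 1, with a symbol for each mouse and a bar at the mean of 4. Epcam, Cd24a, Alcam and Prom1 lie between 192 and 766 CPM, Foxl1 is at 0 throughout, and the LLRC and non-LRC symbols overlap for each of the other markers.

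The sequence upstream of the most abundant marker and of the nearly silent fetal marker is shown to set both beside their levels. These are the 250 bases before the RefSeq start on GRCm38.p6, written 5′ to 3′, for Epcam at chr17:87635729-87635978 and for Afp at chr5:90490464-90490713, both on the plus strand. Capitals mark matches on either strand to TATAAA (the TATA box) and to the common promoter element CCAAT. The matches do not overlap in the Afp window.
Epcam: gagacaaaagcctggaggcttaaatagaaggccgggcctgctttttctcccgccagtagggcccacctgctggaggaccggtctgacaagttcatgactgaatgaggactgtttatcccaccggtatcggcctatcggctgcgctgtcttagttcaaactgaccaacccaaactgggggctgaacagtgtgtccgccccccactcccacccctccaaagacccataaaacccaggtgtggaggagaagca
Afp: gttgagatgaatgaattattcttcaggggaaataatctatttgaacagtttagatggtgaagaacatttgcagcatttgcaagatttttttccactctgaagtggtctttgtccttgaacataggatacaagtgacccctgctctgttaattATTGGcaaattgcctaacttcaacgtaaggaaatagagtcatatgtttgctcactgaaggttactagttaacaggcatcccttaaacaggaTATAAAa
The Epcam window held neither word, 8 CG pairs and 56.4% G or C. The Afp window held TATAAA 7 bases and a reversed CCAAT 98 bases before the start, with 1 CG pair and 36.0% G or C. Of 32851 windows of this length, 12.37% held TATAAA and 33.85% CCAAT, and the median window had 6 CG pairs and 52.4% G or C. The windows of Prom1 and Alcam, which were abundant, each held 1 CCAAT as well, 35 and 201 bases before the start, and no TATAAA. Distances are counted from the RefSeq start, and GENCODE places the start of Afp farther downstream, at 90490737. A match describes the letters and not a site that a factor was shown to bind.

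No difference between LLRCs and non-LRC cells was detected for any of the 7 tested markers. By edgeR's quasi-likelihood test, 0 markers of 7 had an adjusted p below 0.05, against 0 of all 13605 tested genes (0.0% called), and 0 of the 7 had an unadjusted p below 0.05, against 5.16% of all genes. Groups of LLRC and non-LRC libraries that did not overlap in CPM were found for 0 of the 7, against 4.06% of all genes, and 0 of the 7 went in the same direction in all 4 mice, against 13.3% of all genes. DESeq2's Wald test, edgeR's exact and likelihood ratio tests and limma voom also called 0 of the 7, where they called 1.62%, 1.17%, 1.26% and 0.0% of all genes, so that 0 of 7 is near the background in each of these tests. The log2 fold changes lay between -0.36 and 0.33, with a median of 0.08 against -0.01 over all tested genes. The precision differed widely between the markers, as the intervals show.

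Epcam (chromosome 17, 87635979 to 87651129 of GRCm38, plus strand) encodes the epithelial adhesion molecule of the gate. In mice JV602, JV621, JV624 and JV6314, in that order, its LLRC libraries had 586, 651, 549.6 and 547 CPM and its non-LRC libraries 528, 766, 432 and 478 CPM. The LLRC libraries lay within the wider range of the non-LRC libraries, whose highest value came from JV621. LLRC was the higher library in 3 of the 4 mice. The fold change had a 95% interval from 0.713 to 1.57, and Epcam was the marker with the narrowest interval on the log2 scale together with Prom1 (-0.49 to 0.65 and -0.55 to 0.64). Among the proteins that associate with EpCAM in the membrane, the tetraspanin gene Cd9 (log2 fold change 0.07, SE 0.25), the claudin gene Cldn7 (0.31, SE 0.31) and the tetraspanin gene Tspan8 (-0.49, SE 0.33) were well read in each library. Cldn1 had 273 counts in the non-LRC library of JV624 and 0 to 33 counts in the others. None of the 5 genes in this list of partners had an unadjusted p below 0.05.

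Prom1 (chromosome 5, 43993620 to 44102032, minus strand) encodes CD133, a glycoprotein of membrane protrusions on the apical face of epithelial cells. Its levels were 289, 356, 213 and 349.8 CPM in LLRC libraries and 259, 378, 262 and 273 CPM in non-LRC libraries, in the same order of mice. The groups overlapped, with the LLRC library of JV624 below and the non-LRC library of JV621 above all libraries of the other group. The mice were split, with LLRC higher in JV602 and JV6314 and lower in JV621 and JV624. The log2 fold change was 0.04 (SE 0.26, adjusted p = 0.9999 in edgeR's quasi-likelihood test). Exons of Prom1 share 5.909% of their bases with Gm16401 on the opposite strand, which counting without strand cannot separate, and Gm16401 itself had at most 3 counts in a library. The related gene Prom2 was near the floor, with 0 to 38 counts.

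Alcam (chromosome 16, 52248996 to 52454074, minus strand) encodes CD166, an adhesion molecule of the immunoglobulin family. Its LLRC libraries had 298, 457, 509.9 and 436 CPM and its non-LRC libraries 454, 652, 193 and 192 CPM. The non-LRC libraries thus held both the highest value, in JV621, and the lowest values, in JV624 and JV6314, with all LLRC libraries between them. Within mice the log2 ratio of LLRC over non-LRC was -0.61 in JV602 and -0.51 in JV621, but 1.40 in JV624 and 1.18 in JV6314. The fitted log2 fold change was 0.19 (SE 0.43), with a 95% interval from -0.78 to 1.16 that takes in a fold of 0.582 as well as 2.23. Leaving out the non-LRC library of JV621 gave 0.61, and leaving out that of JV624 or JV6314 gave -0.03 or -0.02, none of them past the threshold. Its ligands were hardly read: Cd6, a T cell receptor for CD166, had 0 counts in every library and L1cam had between 0 and 17 counts.

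Cd24a (chromosome 10, 43578284 to 43584265, plus strand) encodes a small, heavily glycosylated surface protein anchored by a lipid. It had 509, 610.1, 403 and 401 CPM in LLRC libraries and 478, 616, 228 and 209 CPM in non-LRC libraries. As for Alcam, the non-LRC libraries of JV624 and JV6314 were below the other 6 libraries, while those of JV602 and JV621 were close to their LLRC partners. The log2 ratios within mice were 0.09, -0.01, 0.82 and 0.94. The fitted log2 fold change was 0.33 (SE 0.39, 95% interval -0.54 to 1.20), with 0.13 when the non-LRC library of JV6314 was left out and 0.66 when that of JV621 was, and this difference was not distinguishable from the spread between libraries. A stretch of 11.89% of its longest coding transcript has a near-identical copy in the pseudogene Gm6212, and the assignment of reads there is uncertain. Siglecg, a receptor for CD24, had 0 counts throughout. Selp, the CD24 receptor P-selectin of endothelium and platelets, had 0, 13, 7 and 0 counts in LLRC libraries and 31, 267, 61 and 2 in non-LRC libraries, and was lower in LLRCs in 4 of 4 mice. Its log2 fold change was -4.75 (SE 1.68, unadjusted p = 0.0195, adjusted p = 0.771 in edgeR's quasi-likelihood test). The endothelial markers moved with it, as given further on, and their part in its level was not tested.

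**Figure D2:**
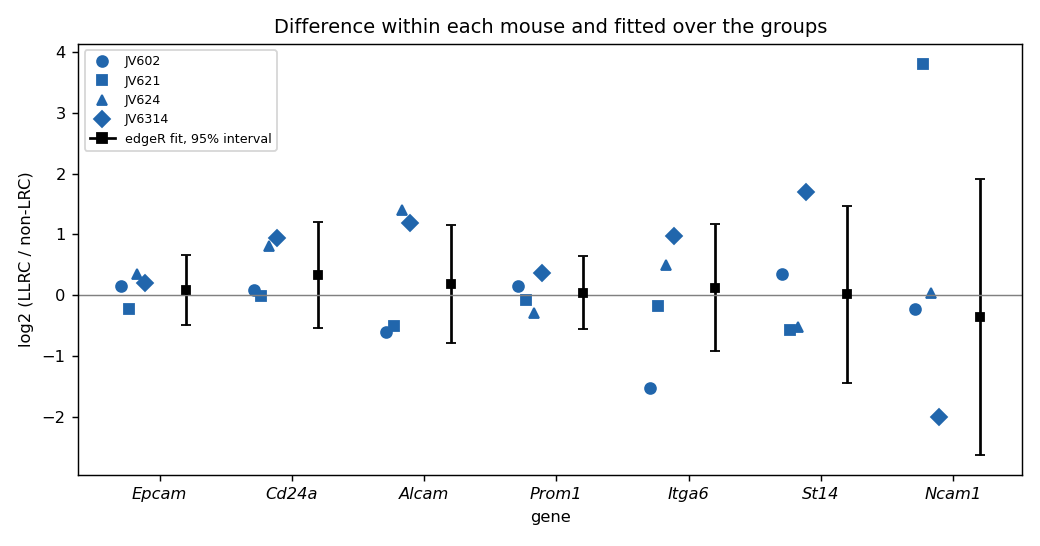
Log2 ratio of LLRC over non-LRC for the 7 tested markers, with coloured symbols for the ratio within each of the 4 mice and a black square with its 95% interval for the edgeR fit over the groups. Every interval spans 0, and the symbols of each marker lie on both sides of 0, from -0.23 to 0.35 for Epcam and from -0.58 to 1.69 for St14.

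Ratios of counts within a library do not depend on the scaling between libraries, and they set the surface markers against the gated one. Alcam reached 50.8%, 70.2%, 92.8% and 79.7% of the Epcam count in LLRC libraries and 85.9%, 85.2%, 44.7% and 40.2% in non-LRC libraries. Cd24a reached 87.0%, 93.6%, 73.2% and 73.3% in LLRC libraries and 90.4%, 80.4%, 52.8% and 43.7% in non-LRC libraries. Prom1 stayed between 38.7% and 63.9% of the Epcam count in all 8 libraries. The low Alcam and Cd24a levels of the non-LRC libraries of JV624 and JV6314 were thus also seen against Epcam, whereas Prom1 was not low against Epcam in them, at 60.6% and 57.1%.

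**Figure D3:**
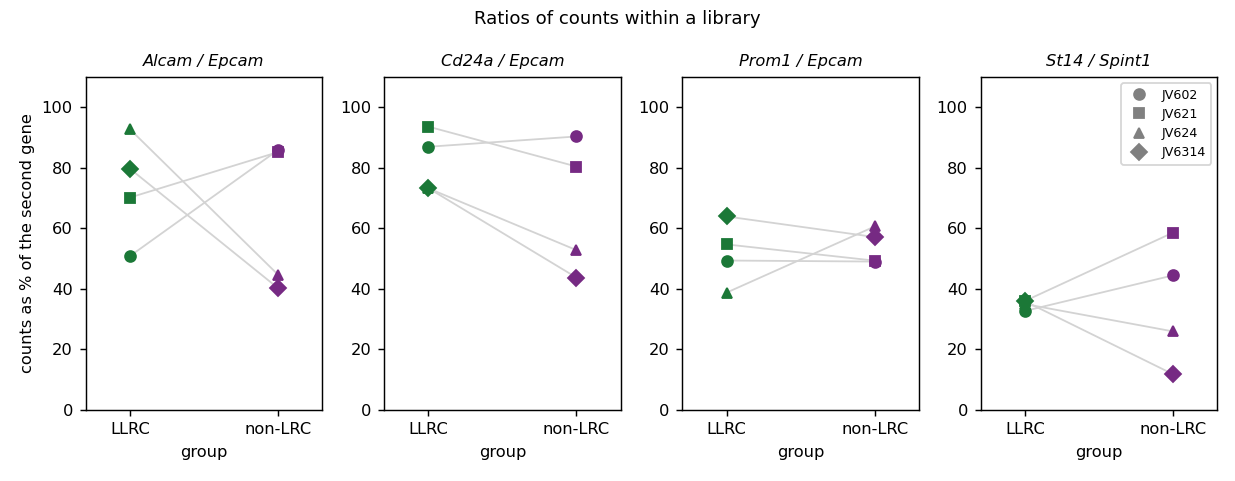
Counts of Alcam, Cd24a and Prom1 as a percentage of the Epcam count, and of St14 as a percentage of the Spint1 count, for each library, with grey lines joining the libraries of a mouse. Alcam and Cd24a drop from LLRC to non-LRC in JV624 and JV6314, and St14 against Spint1 lies between 32.7% and 36.0% in LLRC and between 11.8% and 58.6% in non-LRC libraries.

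The hepatocyte and mesenchymal markers were high in the same libraries. The 15 hepatocyte markers, all of them tested and none at 0 in every library, summed to 8272 and 7394 CPM in the non-LRC libraries of JV624 and JV6314, against 2708 and 4127 CPM in the other non-LRC libraries and 3780 to 4601 CPM in LLRC libraries. Without Reln and Dcn, which made most of the sum, the other 12 mesenchymal markers came to 450 and 342 CPM in these libraries, against 59.7 and 127 CPM in the other non-LRC libraries and 23.7 to 86.6 CPM in LLRC libraries. The 19 cholangiocyte markers without Spp1 summed to 3520 and 4401 CPM there, against 4825 and 5986 CPM in the other non-LRC libraries and 4979 to 5659 CPM in LLRC libraries. The part of these cells in the lower Alcam and Cd24a levels was not tested.

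**Figure D4:**
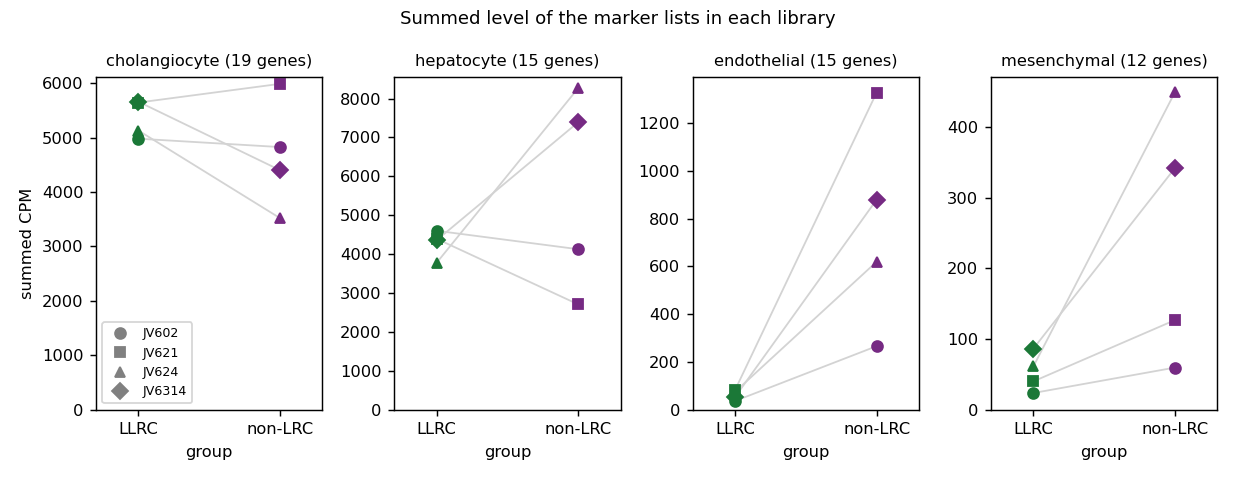
Summed CPM of the cholangiocyte (without Spp1), hepatocyte, endothelial and mesenchymal (without Reln and Dcn) marker lists in each library, with grey lines joining the libraries of a mouse. The non-LRC libraries of JV624 and JV6314 have the highest hepatocyte and mesenchymal sums and the lowest cholangiocyte sums, and the endothelial sum is 36.8 to 82.4 CPM in LLRC and 266 to 1327 CPM in non-LRC libraries.

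St14 (chromosome 9, 31089402 to 31131853, minus strand) encodes matriptase, a membrane-bound serine protease of epithelia. It had 50.1, 34.8, 14.7 and 19.8 CPM in LLRC libraries and 39.1, 52.0, 21.2 and 5.92 CPM in non-LRC libraries. In both groups JV602 and JV621 were above JV624 and JV6314, and the groups overlapped. The log2 fold change was 0.02 (SE 0.64), with a 95% interval of the fold from 0.369 to 2.77. Leaving out the LLRC library of JV602 gave -0.35, and leaving out the non-LRC library of JV621 gave 0.44. The matriptase inhibitors HAI-1 (Spint1, log2 fold change 0.17, SE 0.43) and HAI-2 (Spint2, -0.13, SE 0.26) and the substrate prostasin (Prss8, -0.04, SE 0.42) did not pass the test either. Per library, St14 came to 32.7%, 36.0%, 35.0% and 35.9% of the Spint1 count in LLRCs, and to 44.4%, 58.6%, 25.9% and 11.8% in non-LRC cells. The protease and its inhibitor were thus in a narrower ratio among LLRC libraries (SD 1.54 percentage points, n = 4) than among non-LRC libraries (SD 20.6 percentage points, n = 4), a difference of spread that was not tested. The 11.8% rests on 30 counts of St14. Against Epcam, the SD for St14 was 2.59 percentage points in LLRC and 2.77 in non-LRC libraries. Other ratios to Epcam went either way, with 10.5 and 5.78 for Prom1 and 10.2 and 22.1 for Cd24a. F2rl1, the protease-activated receptor PAR2, was low, with 0 to 42 counts.

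Itga6 (chromosome 2, 71745616 to 71858416, plus strand) encodes the integrin alpha 6 chain, CD49f, which pairs with the beta 1 or beta 4 chain as a receptor for laminins. It was the marker that varied most among LLRC libraries of those above 10 CPM, with 15.4, 25.0, 39.6 and 67.7 CPM, while the non-LRC libraries had 44.7, 28.2, 27.9 and 34.5 CPM. The LLRC libraries enclosed the non-LRC range, with JV602 and JV621 below it and JV6314 above it. The log2 fold change was 0.12 (SE 0.46), and it was -0.34 without the LLRC library of JV6314. It was also below 0 in the fit with the mouse as a block (-0.041), with limma voom (-0.094) and with library size only (-0.011). A share of 7.564% of its longest coding transcript has a near-identical copy in the pseudogene Gm29397, which had 6 to 27 counts in LLRC libraries and 0 to 3 counts in non-LRC libraries. Itgb1 was far more abundant and even, with 325 to 441 CPM in LLRCs and 384 to 591 CPM in non-LRC cells, and Itgb4 was low with 2.57 to 7.89 CPM. Of the 8 genes for integrin partners and laminin chains, 0 had an unadjusted p below 0.05, and their log2 fold changes ran from -0.79 for Lamc1 to 0.32 for Lamb3. Lama5 and Lamb1 had 0 counts in the non-LRC library of JV621, which stood apart, and Lama5 had 110 or more counts in the others.

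Ncam1 (chromosome 9, 49502136 to 49798925, minus strand), a neural adhesion molecule that is also found on cells of the developing ductal plate, was read in few counts. It had 35, 30, 44 and 20 counts in LLRC libraries and 32, 0, 40 and 49 counts in non-LRC libraries, or 3.39, 3.55, 6.47 and 2.22 CPM against 4.01, 0, 6.31 and 9.67 CPM. The groups overlapped, and the lone 0 was in the non-LRC library of JV621. The log2 fold change of -0.36 had an SE of 1.01 and a 95% interval of the fold from 0.161 to 3.78, so that a difference of a few fold in either direction was not detectable in these libraries. The direction was not stable, with 0.20 in the fit with the mouse as a block, 0.51 with limma voom and 0.18 when the non-LRC library of JV6314 was left out, none of them past the threshold. Of the exon bases, 4.813% lie opposite Gm11149, which had 0 counts, and 8.623% of the longest coding transcript consists of repeats found in many genes. Fgfr1, a receptor that NCAM engages, was even, with 16.9 to 31.8 CPM in LLRCs and 20.1 to 27.7 CPM in non-LRC cells. Ncam2 had 25, 51, 0 and 1 counts in LLRC libraries and none in non-LRC libraries. The polysialyltransferase genes St8sia2 and St8sia4 had 0 counts in non-LRC libraries and up to 2 and 16 counts in LLRC libraries.

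Foxl1 (chromosome 8, 121127940 to 121130644, plus strand) had 0 counts in all 8 libraries, which allows at most 0.291 to 0.626 CPM. The label of a niche marker therefore finds no reads in these cells. Its neighbour Foxc2 was also at 0, and Foxf1, a factor of mesenchymal cells, had 43 and 27 counts in the non-LRC libraries of JV624 and JV6314, the ones with the most mesenchymal marker, 2 counts in LLRCs of JV621 and none in the rest. Mthfsd, the remaining neighbour, was read in all libraries at 6.22 to 16.3 CPM (log2 fold change -0.41, SE 0.42).

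Afp (chromosome 5, 90490737 to 90508907, plus strand), whose upstream sequence is given above, was close to the floor and did not pass the filter. It had 4, 10, 13 and 10 counts in LLRC libraries and 0, 0, 9 and 0 counts in non-LRC libraries. The counts of the non-LRC library of JV624 fell among those of the LLRC libraries, so the groups overlapped, although within each of the 4 mice the LLRC library had the higher CPM. Fitted without the filter, its log2 fold change was 1.65 (unadjusted p = 0.305, adjusted p = 0.667 in edgeR's quasi-likelihood test). Afp never exceeded 0.0914% of the count of Alb, its neighbour in the albumin gene family, with a mean of 2337 ± 198 CPM for LLRCs and 2319 ± 604 CPM for non-LRC cells (both SD, n = 4). The factors that repress Afp after birth were both read. Zbtb20 had 336, 584, 797 and 441 CPM in LLRCs and 441, 317, 402 and 250.2 CPM in non-LRC cells (log2 fold change 0.61, SE 0.33), and Zhx2 was low at 0.882 to 4.65 CPM in both groups. Gpc3, a fetal liver proteoglycan, had 2328 counts in the non-LRC library of JV624 and 84 to 732 in the others, and the imprinted fetal RNA gene H19 had 1 count in all.

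Over all 9 lists of partner genes, 27 of 36 genes were tested and 0 had an adjusted p below 0.05. An unadjusted p below 0.05 was found for 1 of them, Selp, against 5.16% of all tested genes. Of the 27, 13 had a log2 fold change above 0 and 14 below 0, with a median of -0.04. The non-LRC library of JV621 had 0 counts for 10 of the 40 tested partner and further progenitor genes, against 0 to 2 of them in each other library.

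The markers also differed in how much they varied between the libraries of a group, where animal, sort and library quality cannot be told apart. The SD of log2 CPM over the 4 LLRC libraries was 0.12 for Epcam, 0.29 for Cd24a, 0.34 for Alcam and for Prom1, 0.59 for Ncam1, 0.79 for St14 and 0.91 for Itga6, beside a median of 0.45 over all tested genes. Over the 4 non-LRC libraries it was 0.36 for Epcam, 0.77 for Cd24a, 0.89 for Alcam, 0.26 for Prom1, 2.35 for Ncam1, 1.37 for St14 and 0.32 for Itga6, beside a median of 0.94. The non-LRC library of JV621, in which Ncam1 had 0 counts, weighed on several of these values. Without it, a choice made after seeing the data, the SD was 0.61 for Ncam1, 0.14 for Epcam and 0.039 for Prom1, beside a median of 0.64. It was 1.36 for St14, 0.71 for Alcam, 0.65 for Cd24a and 0.34 for Itga6, which moved less. Over all 4 libraries of each group, Prom1 and Itga6 were the only tested markers with the smaller spread among non-LRC libraries.

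Of 17 further genes used to recognise liver progenitor cells, 13 were tested, 0 had an adjusted p below 0.05, and the median log2 fold change was 0.28. Sox9, a transcription factor of the biliary lineage, and Itgb6, an integrin chain of injured ducts, were higher in LLRCs in 4 of 4 mice, with log2 fold changes of 0.40 (SE 0.39) and 2.03 (SE 1.58) that did not pass the test. Itgb6 was read in 33 to 122 counts in LLRC libraries, and among non-LRC libraries only in that of JV624, with 50 counts. Kit and Cd34, which also mark blood progenitors and endothelium, had unadjusted p-values of 0.00965 and 0.00821 and were lower in LLRCs in 3 of 4 mice (adjusted p = 0.567 and 0.545 in edgeR's quasi-likelihood test). The fetal marker Dlk1 had 0 counts, and Lgr5 and Axin2, which respond to Wnt signals, had at most 2 counts in a library.

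The gate was checked against marker lists of the cells it could hold. All 20 cholangiocyte markers were tested, with a median log2 fold change of 0.29, and Spp1 alone took 7.85% to 18.9% of all counts. Of the 20, 1 was higher and 1 lower in LLRCs at an unadjusted p below 0.05, against 5.16% of all tested genes in either direction. The higher one was the chloride channel gene Cftr (log2 fold change 1.43, SE 0.47, higher in 3 of 4 mice, adjusted p = 0.688 by the edgeR test). The lower one was the water channel gene Aqp1, which bile duct and endothelial cells both use (log2 fold change -4.07, SE 0.57, lower in 4 of 4 mice, adjusted p = 0.0809 in edgeR's quasi-likelihood test). Among the 15 hepatocyte markers, 12 had a log2 fold change below 0, with a median of -1.22, and 6 were lower in LLRCs at an unadjusted p below 0.05. The endothelial markers set the groups apart most widely. Of 15, 13 were tested, and each of the 13 had a log2 fold change below 0 with an unadjusted p below 0.05, with a median of -3.69, although 0 passed the adjusted threshold in edgeR's test. Of the 12 hematopoietic markers 4 were tested, with a summed level of 16.3 to 35.2 CPM in LLRCs and 26.9 to 48.9 CPM in non-LRC cells, and the lymphocyte genes Cd3e and Cd79a had 0 counts. Of the tested members, 1 had a log2 fold change above 0 and 3 had one below 0. Ptprc, which encodes the CD45 of the negative gate, was higher in LLRCs in 4 of 4 mice (log2 fold change 3.27, SE 1.42, adjusted p = 0.957 in edgeR's quasi-likelihood test), and Fcer1g, a signalling chain of myeloid cells, was lower in 4 of 4 mice (log2 fold change -3.89, SE 0.96, adjusted p = 0.319 in the same edgeR test).

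The genes whose pattern over the 8 libraries was closest to each marker were found by the root mean square difference of log2 CPM after each gene's own mean was subtracted. For Epcam they were Clk4 (0.10) and Sar1a (0.11), where the median over all other genes was 0.77. For Prom1 they were Xbp1 (0.11) and Cops5 (0.13), for Alcam Etl4 (0.14) and Retreg1 (0.16), and for Cd24a Pbxip1 and Prox1 (both 0.16). The less abundant markers had less close neighbours, with 0.26 for both Pomgnt1 and Sh3d21 beside St14, 0.27 and 0.30 for Gm12543 and Gm15766 beside Itga6, and 0.27 and 0.30 for Mttp and Dot1l beside Ncam1. Among the markers themselves, Epcam and Prom1 were the closest pair, at 0.21. Of 13604 genes, Epcam was the 39th closest to Prom1, and Prom1 the 95th closest to Epcam. Alcam and Cd24a followed at 0.32, with Alcam the 119th closest to Cd24a and Cd24a the 182nd closest to Alcam. The libraries and their depth are shared by all these values, so they are given as a description over 8 libraries.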

How the data were processed

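Gene counts of 8 libraries, 4 LLRC and 4 non-LRC, were used as deposited. Reads were mapped by a service facility (the aligner is not given in the sources used here), and the authors made the counts on GRCm38.p4 exons with HTSeq (union mode, unstranded). Their deposited edgeR table of fold changes, abundances and p-values was not used. From the counts, 13605 of 46603 genes passed filterByExpr, library sizes were scaled by TMM (factors 0.816 to 1.23), and groups were compared with edgeR 4.0.16 (glmQLFit, glmQLFTest) in R 4.3.3. Intervals of 95% are approximate, from the SE. log2 CPM used a prior count of 2. limma 3.58.1 and DESeq2 1.42.0 served as alternatives, as did other filters and scalings, a block for the mouse, and leaving out single libraries. Names and exons came from GENCODE M21, which named 46005 of the identifiers, and RPKM used all exon bases of a gene. The libraries of a mouse come from the same animal, as the sample titles state, which pairs them, and their deviations from the group means correlated at 0.096, 0.074, 0.003 and 0.171. Named genes were the 9 markers, the genes of the partner and marker lists, and the 2 genes closest to each marker, though some list genes are not reported here. Markers and lists were chosen with earlier results of these data known. RefSeq windows of Cd24a, St14, Ncam1, Foxl1 and Itga6 were not analysed here. The pseudogene Gm6212 was not analysed here. The p-values measure the spread between the 4 libraries of a group, each from a different mouse. The main fit did not use the pairing.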

Additional observations from a re-analysis of the deposited data

Results flagged for a closer look

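Of 25 groups of 4 values that were screened, either CPM of a group's libraries or log2 ratios of the mice, 2 had a value far from the others. The nominal rate of the rule is about 1 in 20 groups, which does not hold where several values are 0, as for Afp. Prom1 stood at 378 CPM in the non-LRC library of JV621 and between 259 and 273 CPM in the other non-LRC libraries. Afp stood at 1.42 CPM (9 counts) in the non-LRC library of JV624 and at 0 in the other non-LRC libraries.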

How the results depend on the processing

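The number of markers called was 0 under all 18 alternatives. Over all genes, the count of 0 became 11 without a filter, 221 with DESeq2's Wald test, 159 with edgeR's exact test and 171 with its likelihood ratio test, and lay between 0 and 6 with a library left out, reaching 6 without the non-LRC library of JV602. The cause was not tested. The paired fit, with the mouse as a replicate block, called 0 genes (569 at an unadjusted p below 0.05) and changed no call of a marker. Of 126 log2 fold changes of markers, 104 kept their direction and 22 reversed, and 0 passed the threshold. The lowest p of a marker was 0.666 after adjustment (0.0956 unadjusted, Cd24a without the non-LRC library of JV621, log2 fold change 0.66). Reversed values were -0.0057 for Prom1 and -0.049 for St14 with DESeq2 size factors, -0.0053 and -0.049 with DESeq2's Wald test, -0.011 for Itga6 with library size only, -0.094 for Itga6 and 0.51 for Ncam1 with limma voom, and -0.041 and 0.20 with the replicate block. With a library left out, log2 fold changes ran from -0.024 to 0.29 for Epcam, -0.035 to 0.20 for Prom1, -0.033 to 0.61 for Alcam, -0.35 to 0.44 for St14, -0.34 to 0.39 for Itga6 and -0.76 to 0.18 for Ncam1. Cd24a stayed above 0, from 0.13 to 0.66. Ncam1, Afp and Foxl1 had at most 49, 13 and 0 counts in a library, where the counting error is large.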
